A study of Mus musculus with 6 samples.

Results

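The 62 genes described here carry symbols of gene families of the motile cilium axoneme or of ciliated cell markers. Their RNA was measured in whole lungs of tumour-bearing mice. Not every one is known to be a part of the axoneme or limited to ciliated cells. A gene was included by its symbol alone: the numbered members of the Dnah, Dnaic, Dnai, Rsph, Cfap and Tekt families, together with Foxj1, Tppp3, Ccdc39, Ccdc153, Tmem212 and Sntn. Of 35275 genes in the tables, 67 had such a symbol, and the 62 with at least 60 counts over all libraries were kept. Just above that limit were Dnah2os with 77 counts, Cfap221 with 86 and Cfap299 with 94, and just below it were Rsph14 with 59, Tekt3 with 51 and Cfap97d1 with 26. Rsph6a and Dnah14 had a count of 0. No difference between groups entered the choice. All 62 genes passed the filter on low counts and were tested. Dnah2os is an antisense RNA, and the other 61 genes code for proteins.

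The lungs came from Balb/c mice 7 days after injection of 250000 4T1 cells into the tail vein (4T1 is a mammary carcinoma line that seeds the lung). The 3 WT libraries are from mice given 4T1.WT cells, and the 3 KO libraries are from mice given 4T1.PD-L1 KO cells, which lack the ligand of the inhibitory receptor PD-1. Both groups share the strain, the tumour line, the cell number, the day and a perfusion of the lungs with 20 mL of PBS. The labels name no edit in the host mice, no tumour-free lung was analysed here, and the age and sex of the mice and the number of KO clones are details the sources used here do not give. The series asks how tumour PD-L1 shapes interferon signalling and T cell recruitment, and the comparison here asks how airway cilium RNA differed between the same lungs. Any effect of PD-L1 cannot be told apart from tumour load or from other differences between the 2 kinds of injected cells.

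Motile cilia are microtubule-based projections that beat on multiciliated cells, which in the lung line the airways and move mucus. Their core, the axoneme, is a ring of doublet microtubules around a central pair. Outer and inner dynein arms on the doublets generate the sliding force, while radial spokes, the central apparatus and the nexin-dynein regulatory complex control it. The transcription factor Foxj1, acting with RFX factors, is known to switch on these genes in ciliated cells.

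Libraries held 14711459 to 16932114 counts and 17520 to 19156 detected genes, and no pair of libraries was alike within sampling noise. A count of 0 allows up to 0.176 to 0.206 CPM (counts scaled by library size) in a library, a limit that covers counting error only. Cd274, the gene of PD-L1, was at 62.6, 53.6 and 74.3 CPM in the WT libraries and at 97.4, 197.4 and 300.5 CPM in the KO libraries (log2 difference 1.65 ± 0.42 SE; adjusted p = 0.161, edgeR). Whole-lung RNA mixes tumour and host cells, so this level does not check the knockout in the injected cells. Among markers of other cells, 9 of 10 interferon-stimulated genes and 3 of 6 leukocyte genes were higher in KO lungs, against 1.12% of all genes. Without KO replicate 2 these counts were 1 and 0, while higher calls over all genes fell from 170 to 23. The list counts were also lower without KO replicate 3 (5 and 1), WT replicate 1 (2 and 0) and WT replicate 2 (2 and 0). Calls over all genes in these settings were 36, 28 and 22. Without WT replicate 3 the list counts were 6 and 3, and without KO replicate 1 they were 10 and 4. Calls over all genes were then 188 and 404. None of 10 alveolar type 2 genes or 8 alveolar type 1 genes passed the test (edgeR).

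Ciliated cell RNA was present in every library at a low level. Foxj1, Tppp3 and Dnah5, the markers of multiciliated cells, had counts in all 6 libraries. Of the 62 genes, 61 were detected in every library, and the exception was Cfap73, with a count of 0 in KO replicate 2. The median gene was at 3.90 CPM, against 22.1 CPM for all 15191 genes tested, and 12 genes reached 10 CPM. Several of these families also serve the sperm flagellum, so 7 sperm and spermatid genes were examined beside them. None had enough counts for the test, Prm2, Tnp1, Acrv1, Odf1 and Akap4 were at 0 in all 6 libraries, and the summed level of the list was at most 0.915 CPM.

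Per kilobase of exon, the order of levels was led by genes that are not dynein heavy chains. Tppp3, a tubulin-binding protein of ciliated and some other cells, stood at 147.9 CPM per kb, and its libraries ranged from 136.4 to 170.5. It held 34.7% of all counts of the 62 genes. Cfap43 and Cfap36 followed, both at 13.2 CPM per kb, and Cfap298 was at 12.6, and their libraries overlapped. Cfap20 came next at 6.44, Foxj1 at 6.32, Tmem212 at 5.60 and Ccdc153 at 4.79 CPM per kb. The heavy chains were lower, from 1.88 CPM per kb for Dnah8 to 0.123 for Dnah7c. The median gene was at 0.974 CPM per kb, against 5.18 for all genes tested.

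**Figure D1:**
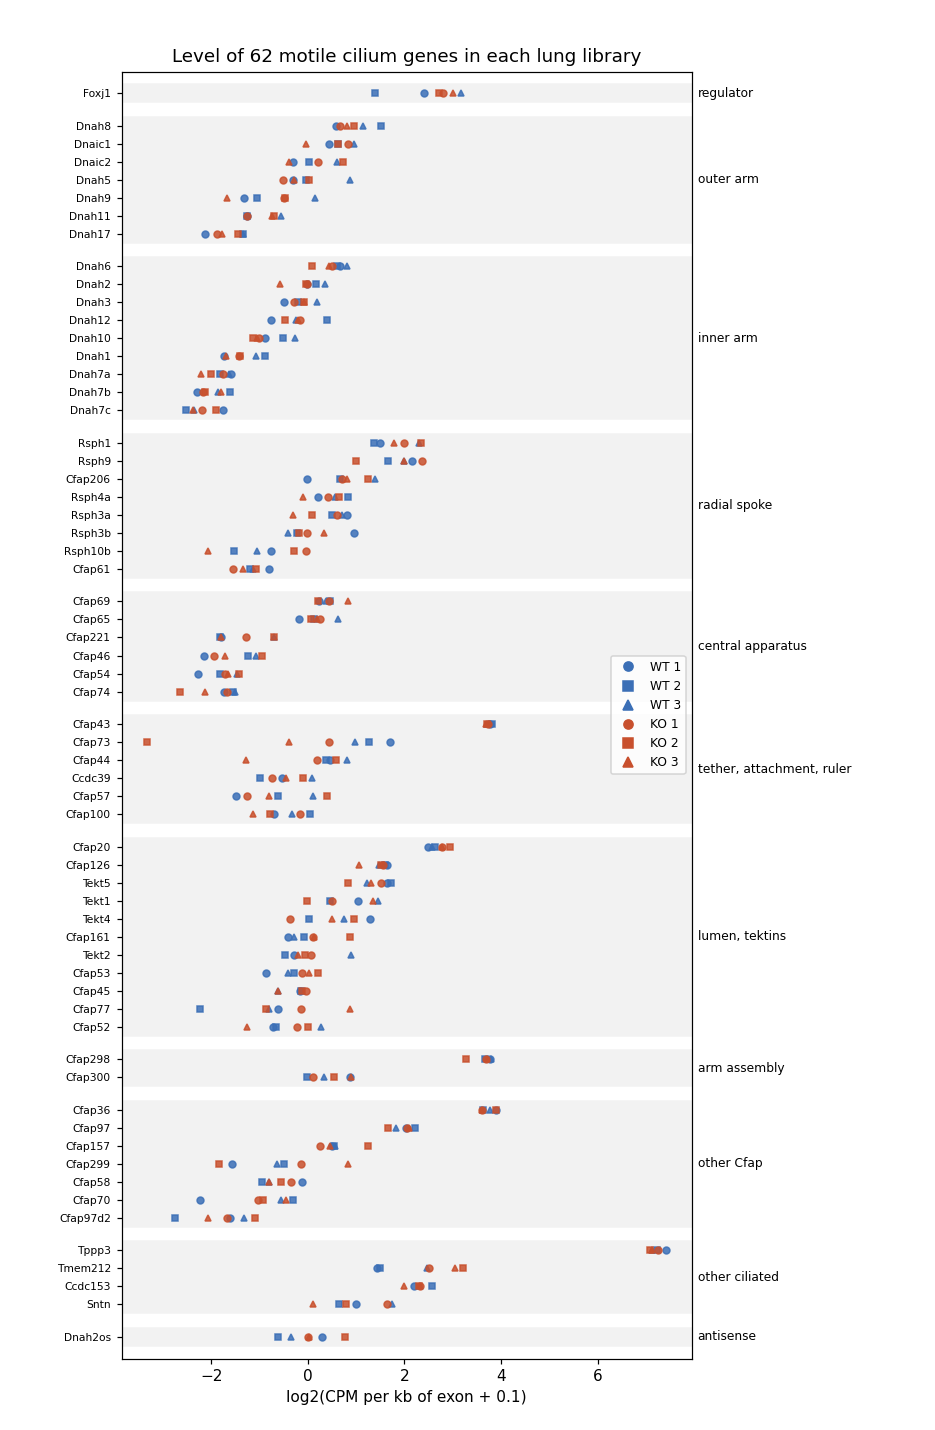
Level of each of the 62 genes in the 6 libraries, as log2 of CPM per kilobase of exon plus 0.1, grouped by role. Circles, squares and triangles are replicates 1, 2 and 3, blue for WT and red for KO lungs. Tppp3 lies far above the rest, and the colours are mixed within nearly every gene.

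Promoters of 4 of these genes are shown, of the marker Dnah5, of Tmem212 and Dnah10, which had the smallest p, and of Cfap298, because they hold the core letters of factors known to act on ciliary genes. They come from RefSeq (GRCm38.p6), run 5′ to 3′ on the strand of the gene from 250 bases before to 50 bases after its start, and have matches in capitals. Dnah5 and Tmem212 hold the forkhead core TGTTTA or its reverse complement TAAACA, and Dnah10 and Cfap298 hold the RFX core GTTGCC or its reverse complement GGCAAC.
Dnah5 (chr15:28203516-28203815, plus strand): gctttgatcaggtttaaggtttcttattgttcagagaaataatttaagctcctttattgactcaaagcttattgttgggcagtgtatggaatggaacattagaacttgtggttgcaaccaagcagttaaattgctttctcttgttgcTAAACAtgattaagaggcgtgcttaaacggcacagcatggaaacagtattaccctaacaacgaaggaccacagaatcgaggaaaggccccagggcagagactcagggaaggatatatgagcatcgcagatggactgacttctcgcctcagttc
Tmem212 (chr3:27896319-27896618, minus strand): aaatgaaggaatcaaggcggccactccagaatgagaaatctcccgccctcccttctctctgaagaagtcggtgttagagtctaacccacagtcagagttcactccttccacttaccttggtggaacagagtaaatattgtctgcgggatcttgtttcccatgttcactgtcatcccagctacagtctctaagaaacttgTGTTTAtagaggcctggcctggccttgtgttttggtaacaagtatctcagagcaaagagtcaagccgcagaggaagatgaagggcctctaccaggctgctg
Dnah10 (chr5:124724835-124725134, plus strand): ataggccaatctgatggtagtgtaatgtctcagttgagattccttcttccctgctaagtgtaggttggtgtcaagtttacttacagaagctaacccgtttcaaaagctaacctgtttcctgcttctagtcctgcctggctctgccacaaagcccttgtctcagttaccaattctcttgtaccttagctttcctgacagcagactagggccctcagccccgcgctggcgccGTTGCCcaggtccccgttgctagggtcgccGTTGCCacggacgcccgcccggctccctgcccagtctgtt
Cfap298 (chr16:90934800-90935099, minus strand): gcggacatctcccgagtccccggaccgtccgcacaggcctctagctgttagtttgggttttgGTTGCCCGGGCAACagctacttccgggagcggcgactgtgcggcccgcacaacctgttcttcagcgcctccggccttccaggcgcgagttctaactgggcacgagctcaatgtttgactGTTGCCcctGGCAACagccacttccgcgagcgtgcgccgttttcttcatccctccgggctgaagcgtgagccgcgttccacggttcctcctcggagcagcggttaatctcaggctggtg
The table held 48 of the 62 genes. GTTGCC, searched on both strands, was in the promoter of 21 of these 48 (43.8%) and in 14.1% of 27025 genes with an entry. The longer RFX palindrome GTTNCCNNGGNAAC was in the promoter of Cfap298, 1 of 48 (2.08%), against 0.529% of all genes, and its capitals overlap those of the core. TGTTTA was in 11 of 48 (22.9%) against 15.1% of all genes. A match of letters is a description and does not show a bound site.

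No motile cilium gene passed the test between WT and KO lungs, and their values lay on both sides of 0. With edgeR's quasi-likelihood test, adjusted over 15191 genes, 0 of 62 were higher and 0 lower in KO lungs, while 1.45% of all genes passed the threshold of 0.05 (1.12% higher, 0.336% lower). Without adjustment, 2 genes had a p under 0.05, Tmem212 and Dnah10, which is 3.23% of the 62 against 14.6% of all genes (8.29% higher, 6.33% lower). DESeq2 and limma-voom also called 0 of 62, against 4.1% and 1.37% of all genes. The lowest adjusted p was 0.221. Log2 differences, KO minus WT, were above 0 for 26 genes and below 0 for 36, against 51% above 0 among all genes. Their median was −0.08, with quartiles at −0.31 and 0.15, and the median over all genes was 0.01. Leaving out 1 library at a time turned the sign of the difference for 29 of the 62 genes. In whole-lung RNA, the number of ciliated cells and the amount of these RNAs per cell cannot be told apart. The labels do not say that each library is 1 animal, and a p-value then reflects only how these samples vary, which may be technical.

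How much difference the data leave room for depends on the gene. The 95% interval of the log2 difference lay within a 2-fold change in either direction for 21 of 62 genes (33.9%), against 70.6% of all genes tested. It lay within 1.5-fold for Tppp3, Cfap43, Cfap36, Cfap97, Cfap298 and Dnah3. For every gene outside those 21 the interval reached beyond a 2-fold change in at least 1 direction.

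**Figure D2:**
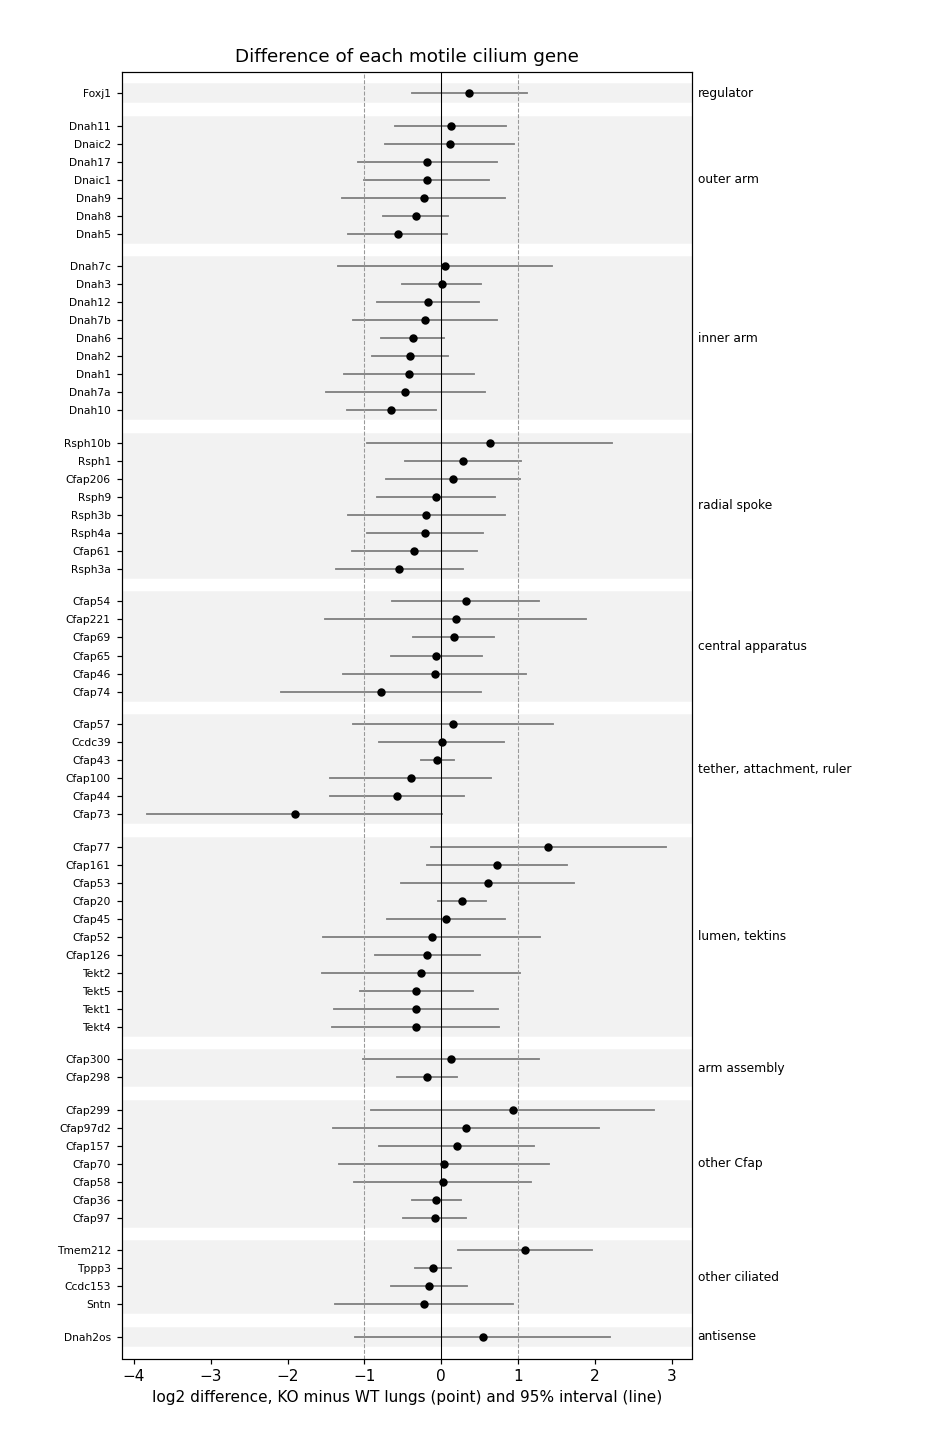
Log2 difference between KO and WT lungs (point) with its 95% interval (line) for each of the 62 genes, grouped by role, with dashed lines at a 2-fold change. The intervals of Tmem212 and Dnah10 exclude 0 without adjustment, and those of the low genes Cfap73 and Cfap299 are the widest.

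Foxj1, the regulator, was at 13.6, 6.64 and 23.2 CPM in the WT libraries and at 18.0, 17.0 and 20.9 CPM in the KO libraries. The KO libraries lay inside the WT range, and the WT libraries differed among themselves by more than the groups did. Its log2 difference was 0.37 ± 0.34 SE (95% interval −0.38 to 1.11; adjusted p = 0.688). That value rested on single WT libraries and was 0.02 without WT replicate 2 and 0.88 without WT replicate 3 (adjusted p = 0.163). Its dispersion was 2.29 times that of genes of like level.

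Outer dynein arms set the beat frequency, and the list had 7 of their genes, with 2 log2 differences above 0, 5 below 0 and a median of −0.19. Dnah5, a heavy chain whose loss causes primary ciliary dyskinesia, was at 11.0, 13.6 and 27.0 CPM in WT and at 9.33, 14.3 and 11.2 CPM in KO lungs. WT replicate 3 was the highest, and the groups overlapped. The log2 difference of −0.57 ± 0.30 SE (95% interval −1.21 to 0.08; adjusted p = 0.414) was −0.09 without that library. Dnah9, another heavy chain of airway cilia, was at 4.74, 6.11 and 16.0 CPM in WT and at 9.65, 9.89 and 3.41 CPM in KO lungs. Its log2 difference was −0.23 ± 0.48 SE (adjusted p = 0.883), and it turned to 0.49 without WT replicate 3 and to 0.12 without KO replicate 3. Dnah8, known best from sperm flagella, had the highest level per kb of the heavy chains, at 37.3, 74.3 and 56.5 CPM in WT and at 39.9, 49.4 and 44.3 CPM in KO lungs. The KO libraries again fell within the WT range (log2 difference −0.33 ± 0.20 SE; adjusted p = 0.478), and the difference was −0.08 without WT replicate 2 and −0.56 without WT replicate 1. The remaining 4, Dnah11, Dnah17 and the intermediate chains Dnaic1 and Dnaic2, had differences from −0.19 to 0.13.

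Outer arm genes included Dnah9, the gene with the highest dispersion relative to genes of like level. The dispersion of 5 of the 7 exceeded that of genes of like level, against 36.5% of all genes tested, and 3 of them, Dnah9, Dnah8 and Dnah5, exceeded it by more than 1.5 times (2.55, 1.78 and 1.76). Over the whole list, 5 of 62 genes (8.06%) did so, the others being Foxj1 and Cfap44, against 7.80% of all genes tested.

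Inner dynein arms shape the waveform. Of 9 genes, 2 had log2 differences above 0 and 7 below 0, with a median of −0.37. Dnah10, a heavy chain of an inner arm, was at 7.08, 9.63 and 11.7 CPM in WT and at 6.31, 5.70 and 6.10 CPM in KO lungs. Every KO library was lower than every WT library, and the log2 difference was −0.65 ± 0.27 SE (95% interval −1.23 to −0.07; adjusted p = 0.281). That difference was −0.82 without WT replicate 1 and −0.47 without WT replicate 3 (unadjusted p = 0.143, edgeR). Dnah6, the inner arm gene with the highest level per kb, was at 19.7, 18.8 and 21.9 CPM in WT and at 17.3, 12.7 and 16.7 CPM in KO lungs. Here too the groups did not overlap (log2 difference −0.37 ± 0.19 SE; adjusted p = 0.399; −0.24 without KO replicate 2). Dnah3 showed no such gap, with 11.5 ± 3.05 CPM (SD, n = 3) over the WT and 11.5 ± 1.02 CPM over the KO libraries and a 95% interval of −0.51 to 0.52. Dnah7a, Dnah7b and Dnah7c are near-identical copies whose reads the counting may have split, so their values are uncertain.

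Radial spokes carry signals from the centre to the arms. Their 8 genes gave 3 differences above 0 and 5 below 0, with a median of −0.13. Rsph1, a spoke head protein and with Rsph9 the highest of them per kb (both 3.70 CPM per kb), was at 3.71, 3.41 and 6.63 CPM in WT and at 5.34, 6.81 and 4.57 CPM in KO lungs, and the groups overlapped. Rsph3a had the smallest p of the spoke genes, with 4.52 ± 0.546 CPM over the WT and 3.09 ± 1.07 CPM over the KO libraries (log2 difference −0.55 ± 0.39 SE; adjusted p = 0.559). That difference was −0.34 without KO replicate 3 and −0.85 without KO replicate 1, and the close copy Rsph3b makes it uncertain. Rsph10b was the spoke gene with the most positive difference, 0.63 ± 0.74 SE, with an interval from −0.96 to 2.22 and values from 0.20 to 1.09 when 1 library was left out.

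The central apparatus had 6 genes, evenly split at 3 above 0 and 3 below 0, with a median of 0.05. Cfap69, the highest of them per kb, averaged 9.36 ± 0.770 CPM over the WT and 10.5 ± 2.47 CPM over the KO libraries. Cfap74 had the most negative difference, −0.78 ± 0.61 SE, at only 2.30 ± 0.268 CPM over the WT and 1.33 ± 0.768 CPM over the KO libraries (adjusted p = 0.602). It was −0.44 without KO replicate 2 and −1.29 without KO replicate 1.

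The 6 genes of the tether, the inner arm attachment and the molecular ruler had a median of −0.22, and they included both the gene with the smallest fold between libraries and the most negative gene. Cfap43, part of the tether of an inner arm, was at 95.01, 98.7 and 91.5 CPM in WT and at 92.9, 92.1 and 90.5 CPM in KO lungs. Its highest library exceeded its lowest by only 1.09-fold, and its 95% interval ran from −0.27 to 0.17. Cfap44, its partner in the tether, was at 10.7, 9.98 and 13.9 CPM in WT and at 8.75, 11.8 and 2.62 CPM in KO lungs. KO replicate 3 alone was low, and the log2 difference of −0.58 ± 0.40 SE (adjusted p = 0.556) was −0.17 without it and −1.02 without KO replicate 2. Cfap73, a protein of inner arm attachment, was at 2.89, 2.11 and 1.71 CPM in WT and at 1.16, 0 and 0.610 CPM in KO lungs. The groups did not overlap, and at this depth the fitted difference of −1.91 ± 0.90 SE had an interval from −3.83 to 0.01 (adjusted p = 0.346). Ccdc39, which sets the repeat length of the axoneme with Ccdc40, averaged 4.85 ± 2.12 CPM over the WT and 4.86 ± 1.22 CPM over the KO libraries.

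Proteins inside the doublets, with the tektins, made up 11 genes, 5 above 0 and 6 below 0, with a median of −0.12. Cfap20, the highest of them per kb, was at 24.6, 27.2 and 26.0 CPM in WT and at 30.2, 33.9 and 29.9 CPM in KO lungs. Every KO library exceeded every WT library, by a log2 difference of 0.27 ± 0.15 SE (95% interval −0.04 to 0.59; adjusted p = 0.419). Cfap161 and Cfap53, both low, were separated in the same direction, with differences of 0.73 ± 0.42 SE (adjusted p = 0.463) and 0.60 ± 0.52 SE (adjusted p = 0.653). Without KO replicate 2 the difference of Cfap161 was 0.41. Cfap77 had the most positive difference of all 62 genes, 1.39 ± 0.71 SE (adjusted p = 0.394). Its libraries were at 1.44, 0.294 and 1.25 CPM in WT and at 2.12, 1.18 and 4.51 CPM in KO lungs, so the groups overlapped, and without KO replicate 3 the difference was 0.73. The 4 tektins, filament proteins of the doublet, all had values below 0, from −0.33 to −0.26. The sign turned when 1 library was left out for Tekt2 (0.36 without WT replicate 3) and Tekt4 (0.03 without WT replicate 1). Tekt1 and Tekt5 stayed below 0, at −0.82 to −0.05 and −0.49 to −0.15.

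The other genes of the list gave 1 of the 2 differences that passed without adjustment. Tmem212, a membrane protein of ciliated cells, was at 1.86, 1.94 and 3.87 CPM in WT and at 3.99, 6.55 and 5.85 CPM in KO lungs. Each KO library exceeded each WT library, with KO replicate 1 barely above WT replicate 3, and the log2 difference was 1.10 ± 0.41 SE (95% interval 0.22 to 1.97; adjusted p = 0.221). Tppp3 was at 315.1, 279.0 and 257.4 CPM in WT and at 280.2, 252.0 and 256.6 CPM in KO lungs. The groups overlapped, and its interval from −0.34 to 0.12 (log2 difference −0.11 ± 0.11 SE; adjusted p = 0.702) was among the narrowest. Sntn, a protein of ciliary tips, and Ccdc153 had differences of −0.22 ± 0.54 SE and −0.16 ± 0.23 SE.
Among 7 further Cfap genes, Cfap36 was the highest per kb, at 37.0 ± 3.41 CPM over the WT and 35.4 ± 4.33 CPM over the KO libraries, and Cfap299 had the smallest p (log2 difference 0.93 ± 0.86 SE; adjusted p = 0.678; 0.07 without KO replicate 3). Cfap298, an assembly factor of dynein arms, averaged 21.2 ± 0.961 CPM over the WT and 18.7 ± 3.12 CPM over the KO libraries (log2 difference −0.18 ± 0.18 SE; adjusted p = 0.713; −0.05 without KO replicate 2). Dnah2os, at 0.674 ± 0.257 CPM over the WT and 0.980 ± 0.343 CPM over the KO libraries, shares 36.3% of its exons with Dnah2, and without a stated strand setting their reads cannot be told apart.

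**Figure D3:**
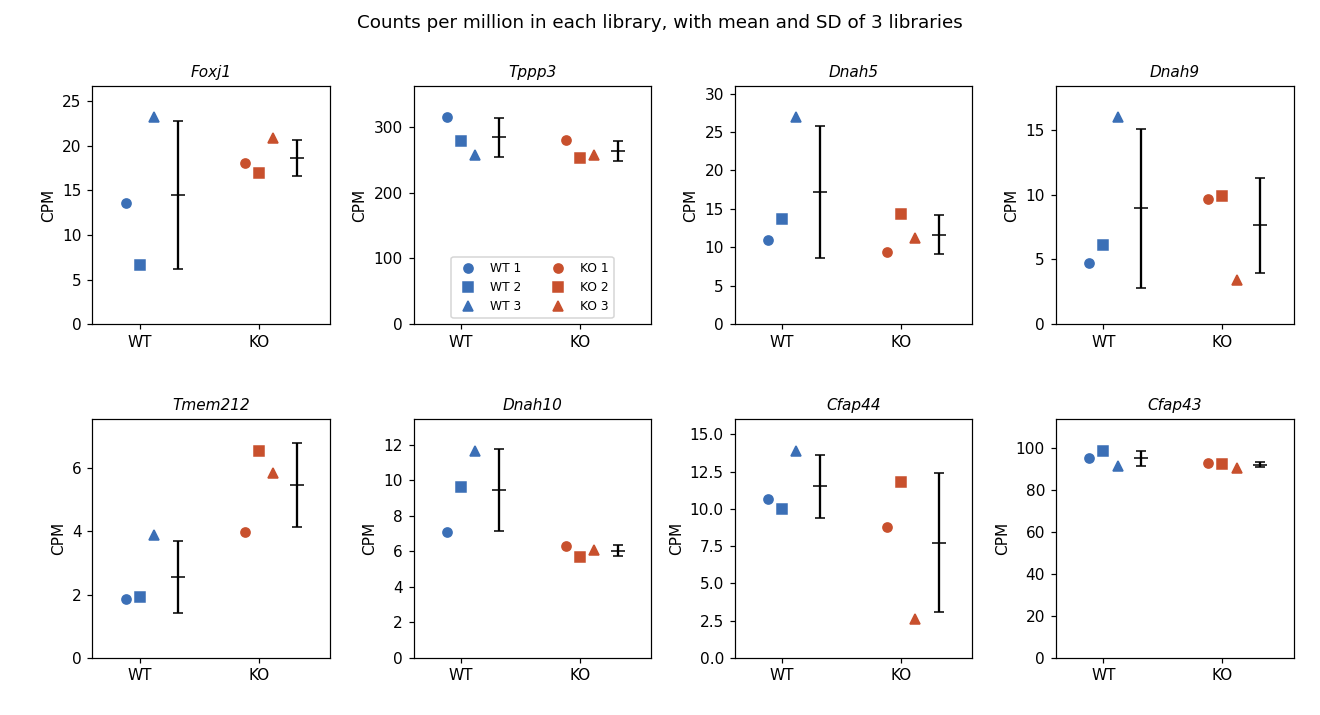
CPM of 8 motile cilium genes in each library, with circles, squares and triangles for replicates 1, 2 and 3 and bars for the mean and SD of 3 libraries. Tmem212 and Dnah10 show groups that do not overlap, Foxj1, Dnah5 and Dnah9 show a high WT replicate 3, Cfap44 a low KO replicate 3, and Cfap43 hardly varies.

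Groups without overlap were found for 7 of the 62 genes (11.3%), against 19.7% of all genes tested. Tmem212, Cfap20, Cfap161 and Cfap53 had every KO library above the WT range, and Dnah10, Dnah6 and Cfap73 had them below, against 10.3% and 9.4% of all genes in each direction. The separations ran in both directions within the axoneme, and their share was below the background. That background was not matched for level, with a median of 22.1 CPM against 3.90 CPM for the 62 genes. The lower share therefore does not show that these genes were steadier than others.

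The libraries of the WT group differed from each other in these genes. WT replicate 3 was the highest library for 21 of 62 genes (33.9%) and the lowest for 2 (3.23%), while over all genes tested it was the highest for 14.1% and the lowest for 14.97%. KO replicate 3 was the lowest library for 15 genes (24.2%, against 20.9% of all genes) and WT replicate 1 for 16 (25.8%, against 16.5%). As the median over the 62 genes of log2(CPM + 1) minus the gene's mean, the WT libraries stood at −0.08, −0.03 and 0.21 and the KO libraries at 0.02, 0.05 and −0.12. The groups overlapped on this scale. Summed over the 62 genes, the level was 791.5, 811.6 and 843.2 CPM in WT and 773.5, 769.6 and 734.3 CPM in KO lungs. Every WT sum was thus above every KO sum. Without the abundant Tppp3 the sums were 476.3, 532.6 and 585.9 CPM in WT and 493.3, 517.6 and 477.8 CPM in KO lungs, and the groups overlapped. The groups also overlapped for Tppp3 by itself. The summed level of 8 alveolar type 1 genes was 7167, 7157 and 6030 CPM in WT and 6786, 5735 and 5789 CPM in KO lungs. It was lower in WT replicate 3 than in the other WT libraries, but lower still in KO replicates 2 and 3, and its part in the cilium values was not tested.

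Genes that build and run cilia but fall outside the symbol rule likewise gave no call. Of 119 tested genes on 7 lists, 0 passed the test (edgeR, adjusted over all genes) and 8 had an unadjusted p under 0.05 (6.72%, against 14.6% of all genes). The genes named below are those with the smallest p of each list, and this share lies below the background. The background was not matched for level, with a median of 22.1 CPM against 5.20 CPM for these genes. Their differences were above 0 for 49 and below 0 for 70, with a median of −0.07. Intraflagellar transport and BBSome genes, which carry cargo along all cilia, were the best measured, with 29 of 34 intervals within a 2-fold change. Among them Kif3a, a motor subunit of this transport, had the smallest p, at 33.4, 31.1 and 24.6 CPM in WT and at 24.6, 18.6 and 18.7 CPM in KO lungs (log2 difference −0.53 ± 0.18 SE; adjusted p = 0.178). Spag1, an assembly factor of dynein arms, was at 2.34, 2.94 and 2.63 CPM in WT and at 5.34, 4.26 and 5.85 CPM in KO lungs. Its groups did not overlap (log2 difference 0.97 ± 0.36 SE; adjusted p = 0.221). Plk4, the kinase that starts centriole formation also in dividing cells, had a difference of 0.52 ± 0.22 SE (adjusted p = 0.280). Differences were above 0 for 6 of 6 cell cycle genes, against 51% of all genes, with a median of 1.10. Of these, 0 passed the test and 6 had an unadjusted p under 0.05, against 14.6% of all genes. Any link between Plk4 and these genes was not tested. Dynll1, a light chain shared by many dyneins, had 0.25 ± 0.10 SE (adjusted p = 0.258), and Sec14l3 had −0.35 ± 0.12 SE (adjusted p = 0.184). Lrrc23, a spoke protein, had −0.50 ± 0.28 SE (adjusted p = 0.440), and Tcte1, of the nexin-dynein regulatory complex, had 0.98 ± 0.70 SE (adjusted p = 0.563).

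Club cells, the secretory cells that lie beside ciliated cells in the airway and can replace them, had genes that passed the test in the same lungs. Of 9 club cell genes tested, 2 were higher in KO lungs, against 1.12% of all genes tested. The median log2 difference was 1.11 over the list, against −0.08 for the cilium genes. Differences were above 0 for 8 club cell genes and below 0 for 1, at −1.02. The dispersion of all 9 exceeded that of genes of like level, against 36.5% of all genes tested. Cyp2f2, a cytochrome P450 of club cells, was at 68.1, 78.0 and 109.9 CPM in WT and at 158.8, 272.8 and 166.0 CPM in KO lungs (log2 difference 1.22 ± 0.24 SE; adjusted p = 0.044). Gabrp was at 3.16, 4.46 and 3.87 CPM in WT and at 7.02, 17.9 and 8.96 CPM in KO lungs (log2 difference 1.55 ± 0.35 SE; adjusted p = 0.0458). Scgb1a1, the main secreted protein of these cells, was at 402.0, 307.0 and 798.2 CPM in WT and at 1844, 3113 and 1313 CPM in KO lungs, without passing the test (adjusted p = 0.158). Neither Cyp2f2 nor Gabrp passed without WT replicate 1, WT replicate 2, KO replicate 2 or KO replicate 3, and the list's median ranged from 0.45 without KO replicate 3 to 1.44 without WT replicate 3. That median was 0.24 with limma-voom and 0.43 with the replicate block. Gabrp also failed without WT replicate 3 (adjusted p = 0.0827) and with limma-voom (adjusted p = 0.113), and Cyp2f2 failed at a minimum count of 30 (adjusted p = 0.054). The difference between the 2 lists itself was not tested. Over 10 genes of epithelium in general, the median was −0.03 and 0 passed the test.

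**Figure D4:**
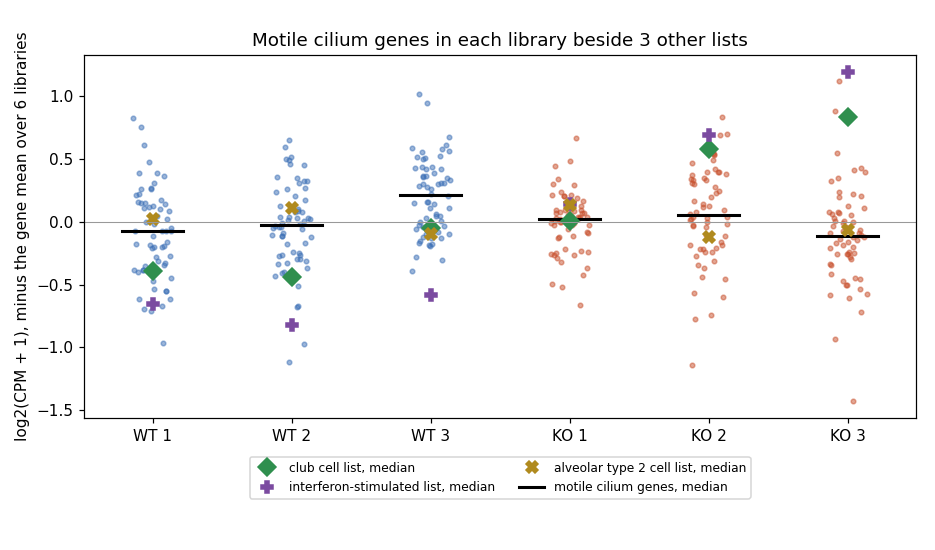
Each point is 1 of the 62 genes in 1 library, as log2(CPM + 1) minus the gene's mean over 6 libraries, with a black bar at the median and symbols for the medians of 3 other lists. Interferon-stimulated genes are below 0 in all WT and above 0 in all KO libraries, while the bars of the motile cilium genes stay between −0.12 and 0.21.

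Few of the 62 genes followed Foxj1 across the libraries. Over 6 libraries, Pearson's r of log2(CPM + 1) with Foxj1 had a median of 0.08 over the 58 other genes at a mean of 1 CPM or more. It was above 0.5 for 7 of them (12.1%), against 19.6% of 14394 genes, and was highest for Ccdc39 (0.75) and Rsph1 (0.74) and lowest for Cfap43 (−0.97). Of 114 other ciliary pathway genes at that level, 25 (21.9%) were above 0.5, with a median r of 0.12. The 6 libraries share tissue, platform and group structure, and most of the genes rest on few counts, so these values only describe the libraries. Of genes outside the list, those most like Foxj1 were Mmp13 (0.995), Zbtb7b, Gm17201, Nectin4, Dazap1, Mrps36, Polr2k, Ndufb6, Sys1 and Acot8 (0.980), and none of the 10 was on a ciliary list.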

How the data were processed

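RNA of 6 whole-lung libraries, 3 per group, was analysed. The deposited values are whole-number counts per Ensembl gene; per the labels, the authors used STAR 2.5 to align the reads to the mouse build mm10 and HTSeq 0.6.1 to count them. The sources used here give neither the annotation release nor the strand setting nor the treatment of reads with several matches. Symbols, exon lengths and overlaps came from GENCODE M21 by identifier (34490 of 35275 matched).

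Differences are KO minus WT from edgeR 4.0.16 in R 4.3.3 (TMM, filterByExpr with a minimum count of 10, quasi-likelihood F-test, robust fit, design of group alone), two-sided, adjusted by Benjamini-Hochberg over 15191 genes at a threshold of 0.05. SE is the log2 difference divided by the square root of F, and CPM use TMM-scaled library sizes. Alternatives were other scalings, filters and thresholds, DESeq2 1.42.0, limma-voom (limma 3.58.1), a replicate block and leaving out each library. The rule for named genes took the markers, the highest gene per kb and the smallest p of each role, and the 5 most positive and negative differences. Other genes described here, such as Dnah9, Dnah3, Ccdc39 and Sntn, were named outside this rule. Members, lists and rules were chosen with earlier results of these data known. Dnah2os, Dnah3, Tekt2, Cfap157 and Ccdc39 share over 10% of their exon sequence with other genes, so their counts are less certain.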

Additional observations from a re-analysis of the deposited data

How the results depend on the processing

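In each of 16 alternative settings, 0 of the motile cilium genes tested passed (62 genes, or 52 at a minimum count of 30). For the median log2 difference, the subset of 35 genes with at least 300 counts took the place of the threshold of 0.1. That median stayed below 0, from −0.16 (this subset) to −0.04 (without WT replicate 3). Foxj1, Tppp3 and Dnah5 kept their direction. The lowest adjusted p of any motile cilium gene was 0.101, for Tmem212 without WT replicate 3. The background moved: over all genes, 170 higher calls became 578 with no filter on low counts, 367 with DESeq2 and 315 at a threshold of 0.1, and 51 lower calls became 225, 231 and 160. With no filter, 1 other ciliary gene, Dync2h1, passed as lower. Leaving out each library gave 22 to 404 higher and 2 to 174 lower calls, the most without KO replicate 1. The cause was not tested. With the replicate number as a block, 309 genes were higher and 96 lower. The labels do not pair the lungs, and same-numbered libraries correlated by 0.02 to 0.05 in their deviations, so the block was not used. The median motile cilium gene was at 3.90 CPM, against 22.1 CPM for all genes tested. Dispersion was 2.29 times that of genes of like level for Foxj1 and 1.76 times for Dnah5. What limited the precision for these genes was not tested.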
